A study of Homo sapiens with 6 samples.

Results

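The sonic hedgehog pathway was followed through 9 genes named for their place in it: the ligand SHH, the receptor PTCH1, the ligand-binding protein HHIP, the signal transducer SMO, the GLI inhibitor SUFU, the transcription factors GLI1, GLI2 and GLI3, and FOXA2, a transcription factor of ventral midline cells. They are 9 of the 61853 entries of the deposited count table, and each symbol matched 1 Ensembl ID. The study profiled RNA of H9, an established human embryonic stem cell line, on day 30 of differentiation into arcuate neurons and on day 0, with 3 libraries per day, in work on the expression of pre-rRNA processing factors. The day 30 cells had been cultured with recombinant SHH at 100 ng/ml and purmorphamine, a small molecule that activates SMO, at 2 μM, from day 1 to day 8. SB431542 at 10 μM and LDN-193189 at 2.5 μM, inhibitors of activin and BMP receptors, were given over the same days. The gamma-secretase inhibitor DAPT, which blocks Notch signalling, followed at 10 μM from day 9 to day 16, with a ROCK inhibitor at 10 μM for replating, and BDNF at 20 ng/ml from day 17. The day 0 cells were the undifferentiated cells of the same line, before these agents. Both groups come from 1 cell line. The labels leave unsaid whether replicates were separate cultures, so the spread behind each p-value is that between these libraries and may be technical.

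Hedgehog ligands bind PTCH1, which without ligand keeps SMO inactive. With ligand bound, SMO moves into the primary cilium and GLI proteins are released from SUFU and act as activators, whereas in its absence GLI3, and in part GLI2, are cut into repressors. PTCH1, HHIP and GLI1 are themselves transcribed in response to GLI activators, and PTCH1 and HHIP then damp the signal. In the vertebrate ventral forebrain SHH signalling sets up hypothalamic territory, and the transcription factor NKX2-1 is among the genes it induces there.

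PTCH1 is the gene of this group in which a GLI binding sequence is found close to a transcript start, and that stretch is shown for this reason. The letters GACCACCCA, the textbook GLI site, were looked for on both strands of RefSeq promoter windows (GRCh38.p14) that run from 250 bases before to 50 bases after a transcript start. A window was listed for 6 of the 9 genes, in 11 windows (GLI1, GLI3 and FOXA2 had none listed), and 1 of these held the letters. Among all 35116 windows 0.236% held them. Several of the 11 windows belong to PTCH1 alone. Of the 92 other pathway genes read below, 68 had a window listed and 0 held the letters. The stretch below lies at chr9:95509350-95509516 on the minus strand, and is written 5′ to 3′ on the strand of PTCH1. The capitals mark the site, which reads GACCACCCA on the other strand and begins 172 bases before the start of that transcript. In GENCODE release 29 the stretch overlaps no exon and lies in an intron of 6 longer PTCH1 transcripts.
PTCH1: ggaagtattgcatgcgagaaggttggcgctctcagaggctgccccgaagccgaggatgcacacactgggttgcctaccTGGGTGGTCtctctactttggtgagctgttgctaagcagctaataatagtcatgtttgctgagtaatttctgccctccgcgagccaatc
A match of letters is a description of the sequence. Binding was not measured here, and the counts do not tell the PTCH1 transcripts apart.

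Total counts per library ran from 5013643 to 12924842, so that 1 count stood for 0.0774 to 0.199 CPM (counts per 1000000 counts of the library). Log2 CPM of libraries of the same day correlated across genes with r of 0.97 to 0.985, and genes are not independent replicates. Day 30 libraries held summed CPM of 4480 to 5370 for 6 neuron markers, against 154 to 173 on day 0, and of 10.4 to 11.7 for 6 pluripotency markers, against 3170 to 3450 on day 0. Of 8 arcuate markers POMC held 17213.5, 22301.83 and 5897.5 counts on day 30, whereas NPY and AGRP held at most 11 counts in any library. Replicate 3 of day 30 stood apart in the sum of 8 mesenchyme markers. It was 4750 CPM there, against 174 and 662 CPM in the other day 30 libraries and 221 to 321 CPM on day 0. Most of it was collagen RNA, with COL1A1, COL1A2 and COL3A1 at 1810, 1830 and 902 CPM in that library.

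All 7 members with enough counts to be tested passed, 4 lower and 3 higher on day 30, beside 76.6% of all genes tested. SMO and the 3 GLI factors fell, PTCH1, HHIP and SUFU rose, and SHH and FOXA2 held too few counts. This stood in a wide change of expression, since of 18040 genes tested 36.8% were lower and 39.8% higher on day 30 (edgeR quasi-likelihood test, Benjamini-Hochberg adjusted p under 0.05). CPM ranges of day 30 and day 0 stayed apart for each of the 7, as they did for 79.4% of all genes tested. HHIP passed the filter on low counts through its day 30 reads and GLI1 through its day 0 reads, so these genes had to differ to be tested at all. In bulk RNA, fewer cells of a type and less RNA per cell cannot be told apart.

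**Figure D1:**
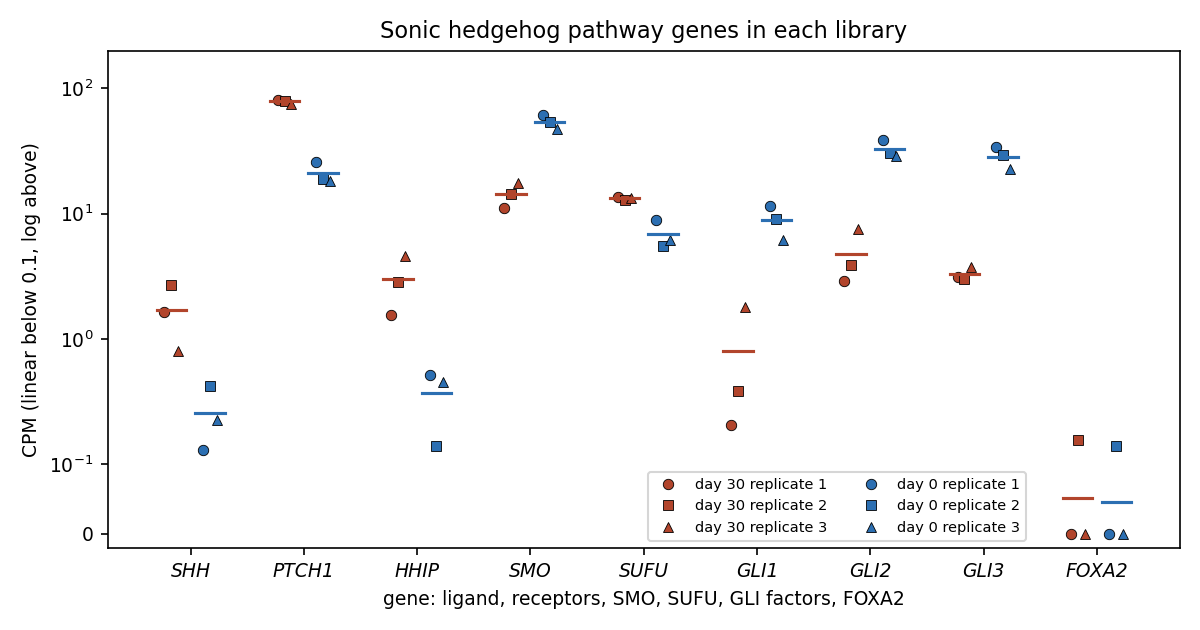
CPM of the 9 genes in each library (vertical axis linear below 0.1 and logarithmic above), day 30 in red to the left of day 0 in blue, with 1 symbol per replicate and a bar at the mean of 3. The day 30 points lie above the day 0 points for SHH, PTCH1, HHIP and SUFU and below them for SMO, GLI1, GLI2 and GLI3, and FOXA2 is at or near 0 on both days.

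Gene positions below are those of GENCODE release 29 on GRCh38. SHH (ENSG00000164690.8, chromosome 7, 155799986 to 155812273, minus strand), the ligand, was scarce on both days. It held 16, 35 and 4 counts in the day 30 libraries and 1, 3 and 2 counts in the day 0 libraries, or 1.65, 2.71 and 0.798 CPM on day 30, against 0.129, 0.418 and 0.227 CPM on day 0. The groups did not overlap, although the lowest day 30 library, replicate 3, rested on 4 counts. The ratio of summed counts was 7.87 (95% counting interval 3.4 to 22.4, which covers counting error only), and an exact permutation test of the CPM gave a 2-sided p = 0.1, the smallest that 3 against 3 libraries can give. SHH was below the filter on low counts. With no such filter its log2 change was 2.72 ± 0.62 (SE; edgeR adjusted p = 3.72e-05). That fit also gave HHIP a far smaller edgeR adjusted p (7.76e-07, against 0.000826 with the filter) at nearly the same change. Its p-values are therefore not comparable with those of the main fit. Fits with a filter that SHH passed, through its day 30 reads, gave edgeR adjusted p of 0.000682 to 0.0116. The recombinant SHH of the protocol is a protein and adds no reads to the gene.

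PTCH1 (ENSG00000185920.18, chromosome 9, 95442980 to 95517057, minus strand) encodes the receptor. It was at 81.6, 79.8 and 75.4 CPM in the day 30 libraries, against 26, 19.1 and 18.1 CPM in the day 0 libraries. The day 30 libraries lay within a narrow span, and each was above the highest day 0 library. PTCH1 rose 3.54-fold, a log2 change of 1.82 ± 0.14 (edgeR adjusted p = 5.64e-07). An annotated antisense gene, AL161729.1, shares 711 exon bases with it and held at most 7 counts in a library.

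HHIP (ENSG00000164161.10, chromosome 4, 144646021 to 144745271, plus strand), a membrane protein that binds hedgehog ligands and keeps them from PTCH1, also rose. It held 15, 37 and 23 counts on day 30 and 4, 1 and 4 counts on day 0, that is 1.55, 2.86 and 4.59 CPM on day 30, against 0.516, 0.139 and 0.455 CPM on day 0. The day 30 libraries differed among themselves by more than those of PTCH1, with replicate 3 highest. The log2 change was 2.77 ± 0.55 (edgeR adjusted p = 0.000826). HHIP-AS1, an antisense RNA gene that shares 178 exon bases with HHIP, held 16, 32 and 15 counts on day 30 and 5, 0 and 3 counts on day 0. No source used here gives the strand setting of the counting, so reads of the shared bases cannot be assigned to either gene.

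SMO (ENSG00000128602.11, chromosome 7, 129188872 to 129213545, plus strand), the receptor-like protein that carries the signal into the cell and the target of purmorphamine, fell. It was at 11.1, 14.5 and 17.6 CPM on day 30, against 61.9, 53.9 and 47.1 CPM on day 0. Every day 30 library was below every day 0 library, and the log2 change was -2.02 ± 0.16 (edgeR adjusted p = 7.87e-07). SMO moved in the opposite direction to PTCH1, the protein that inhibits it.

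SUFU (ENSG00000107882.12, chromosome 10, 102503987 to 102633535, plus strand), which binds GLI proteins in the cytoplasm, had the smallest change of the 7 genes tested. It was at 13.7, 12.8 and 13.4 CPM on day 30, against 8.89, 5.57 and 6.14 CPM on day 0. The groups did not overlap, and SUFU rose by 0.87 ± 0.2 on the log2 scale (edgeR adjusted p = 0.0024). Of all genes tested 59.6% had a larger absolute log2 change.

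The 3 GLI factors, zinc finger proteins that bind the same DNA sequence, fell together. GLI3 (ENSG00000106571.15, chromosome 7, 41960950 to 42237870, minus strand), which supplies most of the repressor form, was at 3.1, 3.02 and 3.79 CPM on day 30, against 33.9, 29.4 and 22.6 CPM on day 0. Its day 30 libraries were close to each other, and the log2 change was -3.23 ± 0.19 (edgeR adjusted p = 8.23e-08). GLI2 (ENSG00000074047.22, chromosome 2, 120735623 to 120992653, plus strand), a main activator of the pathway, was at 2.89, 3.87 and 7.58 CPM on day 30, against 39.1, 30.5 and 28.8 CPM on day 0. Here the third day 30 library was above the others, and the log2 change was -2.98 ± 0.26 (edgeR adjusted p = 1.81e-06).

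GLI1 (ENSG00000111087.10, chromosome 12, 57460135 to 57472262, plus strand), an activator that is transcribed in response to the pathway, held 2, 5 and 9 counts on day 30 and 90, 65 and 54 counts on day 0. These are 0.206, 0.387 and 1.8 CPM on day 30, against 11.6, 9.05 and 6.14 CPM on day 0. The shallowest day 30 library, replicate 3, had the most GLI1 counts of that day. The log2 change was -3.91 ± 0.52 (edgeR adjusted p = 4.27e-05), and -4.84 ± 0.47 (edgeR adjusted p = 6.01e-06) without that library, a fold of 28.6 in place of 15.1. Of all genes tested 12.1% had a larger absolute log2 change than GLI1. Among the members known as direct targets of GLI activators, PTCH1 and HHIP rose, and GLI1 fell.

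FOXA2 (ENSG00000125798.15, chromosome 20, 22581005 to 22585455, minus strand), which marks the floor plate of the neural tube and also endoderm, was not detectable beyond single reads. It held 0, 2 and 0 counts on day 30 and 0, 1 and 0 counts on day 0, and a library with no count allows up to 0.31 to 0.598 CPM on day 30 and 0.341 to 0.387 CPM on day 0. Of 8 endoderm markers SOX17 had no count in any library, and the list summed to 6.58 to 7.02 CPM on day 30 and 12.5 to 21.7 CPM on day 0.

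**Figure D2:**
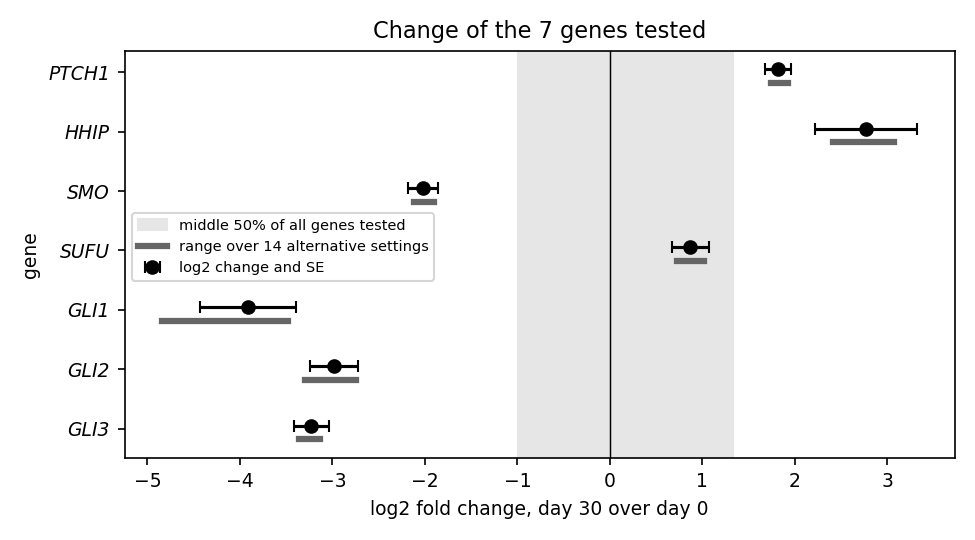
Log2 fold change of day 30 over day 0 (horizontal axis) for the 7 genes tested, as points with the standard error, grey bars for the range over 14 alternative settings and a shaded band for the interquartile range of all genes tested. SUFU lies inside the band, and every range keeps its side of 0, from -4.84 to -3.48 for GLI1 and from 0.72 to 1.02 for SUFU.

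To compare genes with each other, counts were divided by the merged exon length of each gene and scaled to the same sum over all genes in each library, which gives a level per length. On day 30 PTCH1 stood first with a level of 8.49 ± 0.396 (SD, n = 3), followed by SMO at 6.04 ± 1.8, SUFU at 3.46 ± 0.25 and GLI2 at 1.19 ± 0.703. The ranges of these 4 did not overlap with each other. SHH at 0.604 ± 0.339, GLI3 at 0.542 ± 0.109, HHIP at 0.456 ± 0.262 and GLI1 at 0.356 ± 0.405 followed, and each of these overlapped with its neighbour, as SHH did with GLI2. FOXA2 was last on both days, and its day 30 range overlapped with that of GLI1. On day 0 the order was SMO at 21.9 ± 2.29, GLI2 at 7.76 ± 1.15, GLI3 at 4.53 ± 0.731, GLI1 at 3.67 ± 1, PTCH1 at 2.21 ± 0.41 and SUFU at 1.74 ± 0.432, with SHH at 0.0886 ± 0.0478 and HHIP at 0.0539 ± 0.03 far below. On day 0 the ranges of GLI3 and GLI1 overlapped, as did those of PTCH1 and SUFU, of SHH and HHIP, and of HHIP and FOXA2. With the longest transcript as the length, GLI3 came before SHH on day 30.

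The balance of receptor and transducer RNA differed between the days. The level of PTCH1 divided by that of SMO was 1.9, 1.43 and 1.12 in the day 30 libraries, against 0.109, 0.092 and 0.0998 in the day 0 libraries. All day 30 libraries held more PTCH1 than SMO RNA per length, and all day 0 libraries held less.

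Within the GLI family GLI2 made up the largest part of the summed level per length in every library. It made up 54.3%, 58.9% and 57.2% on day 30 and 47.6%, 46.2% and 52.6% on day 0. GLI1 made up 6.77%, 10.3% and 23.6% on day 30 and 24.7%, 23.9% and 19.6% on day 0, so that the third day 30 library lay among the day 0 libraries and the others below them. GLI3 made up 39%, 30.8% and 19.2% on day 30, around the 27.7%, 29.8% and 27.8% of day 0. The shares rest on 16 GLI1 counts over the day 30 libraries, and no test was made of them. With the longest transcript as the length, GLI2 made up 52.6% ± 2.73 on day 30 and 45% ± 3.28 on day 0, and GLI3 made up 32.4% ± 1.28 on day 0 (SD, n = 3).

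**Figure D3:**
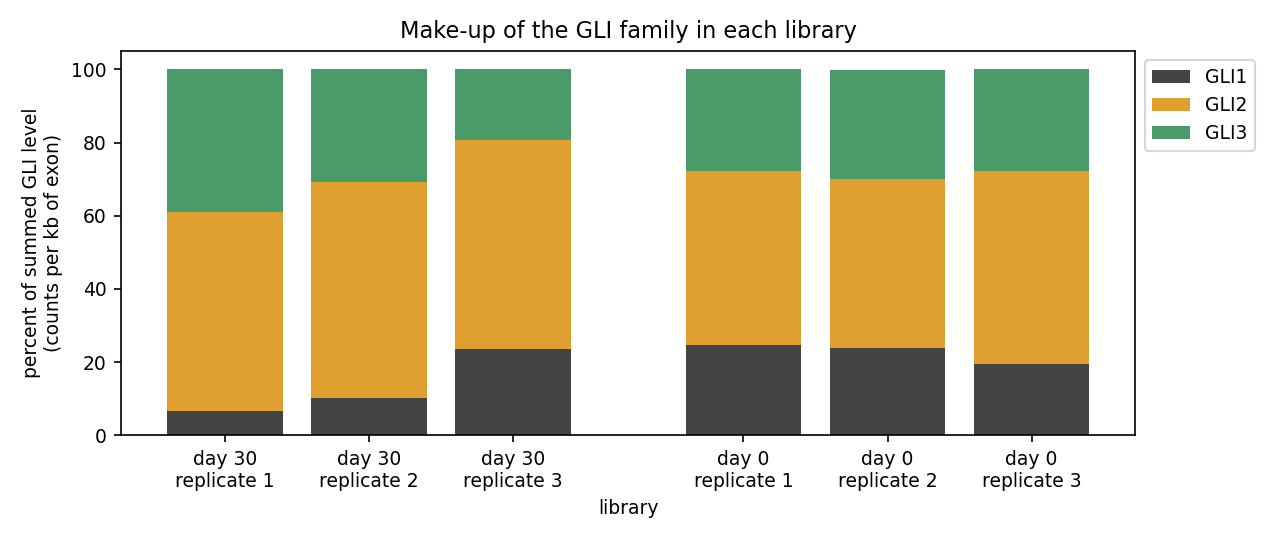
Share of GLI1, GLI2 and GLI3 (vertical axis, percent of their summed counts per kb of exon) in each of 3 day 30 and 3 day 0 libraries. GLI1 runs from 6.77% to 23.6% among the day 30 libraries and from 19.6% to 24.7% among the day 0 libraries.

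Several members differed among the day 30 libraries together with mesenchyme markers. Of the 8 markers COL1A1 held 804.5, 3240 and 9095 counts in the day 30 libraries, and DCN held 5, 5 and 101. TWIST1 held 0, 0 and 6 counts on day 30, against 6, 15 and 53 on day 0. PDGFRA was at 12.9 CPM in day 30 replicate 3, against 6.32, 12 and 8.81 CPM on day 0. Of the 8 markers 1, 1 and 0 were at 0 in the day 30 libraries, against 2, 2 and 1 in the day 0 libraries. Astroglia markers summed to 35.3, 160 and 162 CPM on day 30, against 710 to 1120 CPM on day 0. Most of that sum was GJA1, at 31.2, 156 and 150 CPM on day 30, against 668, 861 and 1080 CPM on day 0. SLC1A3 was at 5.07 ± 4.62 CPM on day 30, against 40.1 ± 2.49 CPM on day 0 (SD, n = 3). GFAP held at most 12 counts in any library, so the sum says little about astroglia. GLI1, GLI2, SMO and HHIP were lowest in day 30 replicate 1, where the mesenchyme list summed to 174 CPM, and highest in replicate 3, where it summed to 4750 CPM. GLI3, at 3.1, 3.02 and 3.79 CPM, was highest in replicate 3 but not lowest in replicate 1. SHH was lowest in replicate 3, and PTCH1 and SUFU varied little. This is an order of 3 libraries, of which replicate 3 was the shallowest, and GLI1, HHIP and SHH rest on few counts. The part of the mesenchyme markers in the levels of the members was not tested. Without replicate 3 the log2 changes were -3.3 for GLI2, -3.27 for GLI3, -2.12 for SMO, 2.47 for HHIP, 1.89 for PTCH1 and 0.9 for SUFU, and all passed the test (edgeR adjusted p of at most 0.00464).

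**Figure D4:**
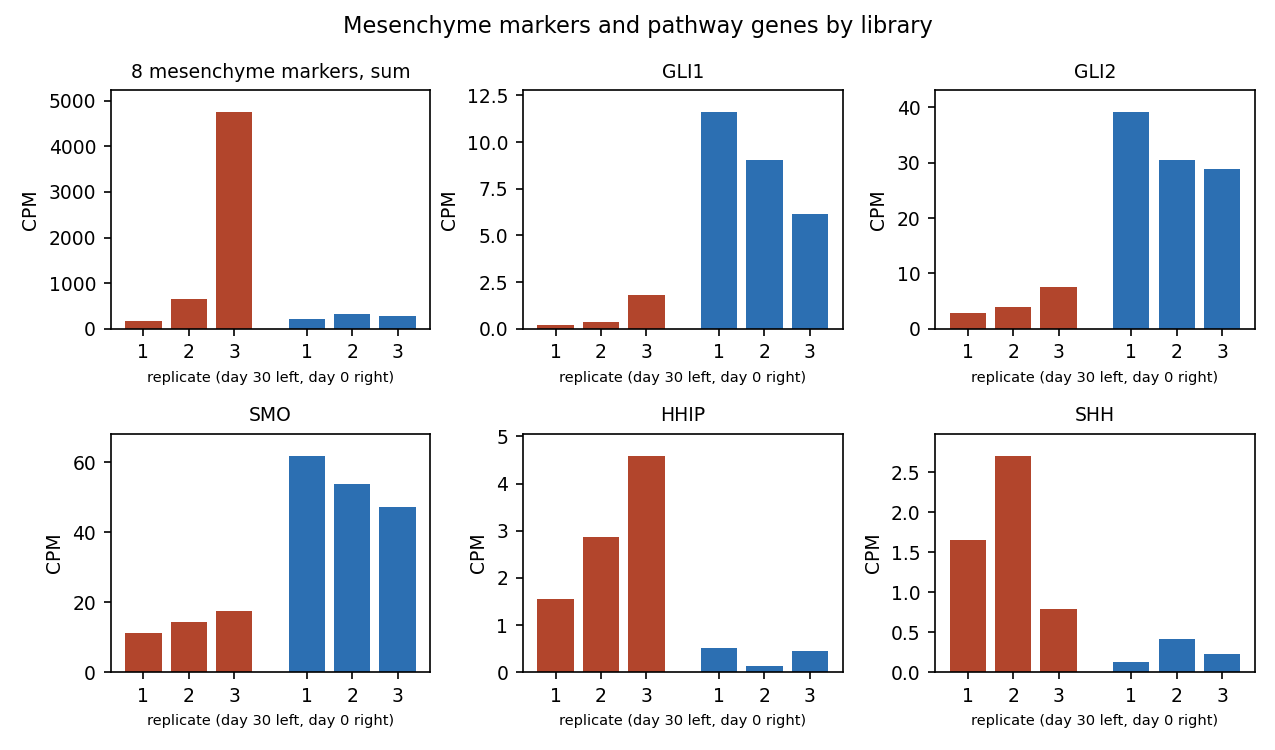
CPM (vertical axes, each from 0) of the summed 8 mesenchyme markers and of GLI1, GLI2, SMO, HHIP and SHH in each library, with day 30 replicates in red on the left and day 0 replicates in blue on the right. The markers run from 174 to 4750 CPM among the day 30 libraries, with GLI1, GLI2, SMO and HHIP highest and SHH lowest in replicate 3.

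Beside the 9 members, 92 other genes of the pathway were read from 10 lists by role. Of these 70 were tested, and 44 (62.9%) were higher and 19 (27.1%) lower on day 30, against 39.8% and 36.8% of all genes tested. The median log2 change was 1.05, against 0.08 for all genes tested. Genes that passed the filter through the reads of 1 day had to differ, so the counts of the lists of scarce transcription factors below describe the genes with enough reads and say little about the lists. HHAT, DISP1, DHH, IHH, CDON, BOC, GAS1, EVC, GSK3B, PRKACA, PRKAR1A, KIF7, NKX2-2, FOXA1, IRX3, PAX6, MSX1, GPC5, GPC6, TBX2, LMX1A and FERD3L are named because of their roles, after their values were seen.

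Of 7 genes for making and releasing hedgehog ligands 6 were tested and rose (median log2 change 3.45), beside 39.8% higher of all genes tested. DISP1 alone among them lay above the filter on both days in every library. The others, DHH, HHAT and the SCUBE genes, passed it through their day 30 reads and had to differ to be tested, so that the count says little about the list. SCUBE1 and SCUBE3, secreted proteins of a family that helps release the lipid-bearing ligand, were at 43 ± 2.01 and 27.7 ± 2.71 CPM on day 30, against 1.47 ± 0.766 and 1.08 ± 0.362 CPM on day 0 (SD, n = 3). Their log2 changes were 4.76 ± 0.24 and 4.6 ± 0.23 (edgeR adjusted p of 2.13e-08 and 2.54e-08). HHAT, the acyltransferase that adds palmitate to the ligand, rose by 2.26 and DISP1, which exports it, by 1.23 on the log2 scale. DHH, another ligand of the family, held 21, 33 and 15 counts on day 30 and 0, 1 and 1 on day 0, which makes their ratio 29.6 (95% counting interval 7.9 to 250), and IHH, the third ligand, held at most 2 counts in a library.

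Receptors and their extracellular partners divided. Of 7 tested of 9, 4 fell and 2 rose (median -0.91), beside 36.8% lower and 39.8% higher of all genes tested. Among the glypicans, proteoglycans of the cell surface of which GPC3 competes with PTCH1 for ligand, GPC3, GPC4 and GPC6 fell, whereas GPC5, which was not tested, held 8, 15 and 9 counts on day 30 and 3, 2 and 1 on day 0. GPC4 had 21.7 ± 9.58 CPM on day 30, against 692 ± 45.4 CPM on day 0, and GPC3 had 10.3 ± 2.15 CPM on day 30, against 69.8 ± 23.4 CPM on day 0 (SD, n = 3), log2 changes of -5.08 ± 0.28 and -2.8 ± 0.23. Of the co-receptors CDON fell by 0.91 on the log2 scale (edgeR adjusted p = 7.87e-05), BOC was at -0.57 (edgeR adjusted p = 0.301) and GAS1 held 10 counts in all on day 30 and 29 on day 0.

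**Figure D5:**
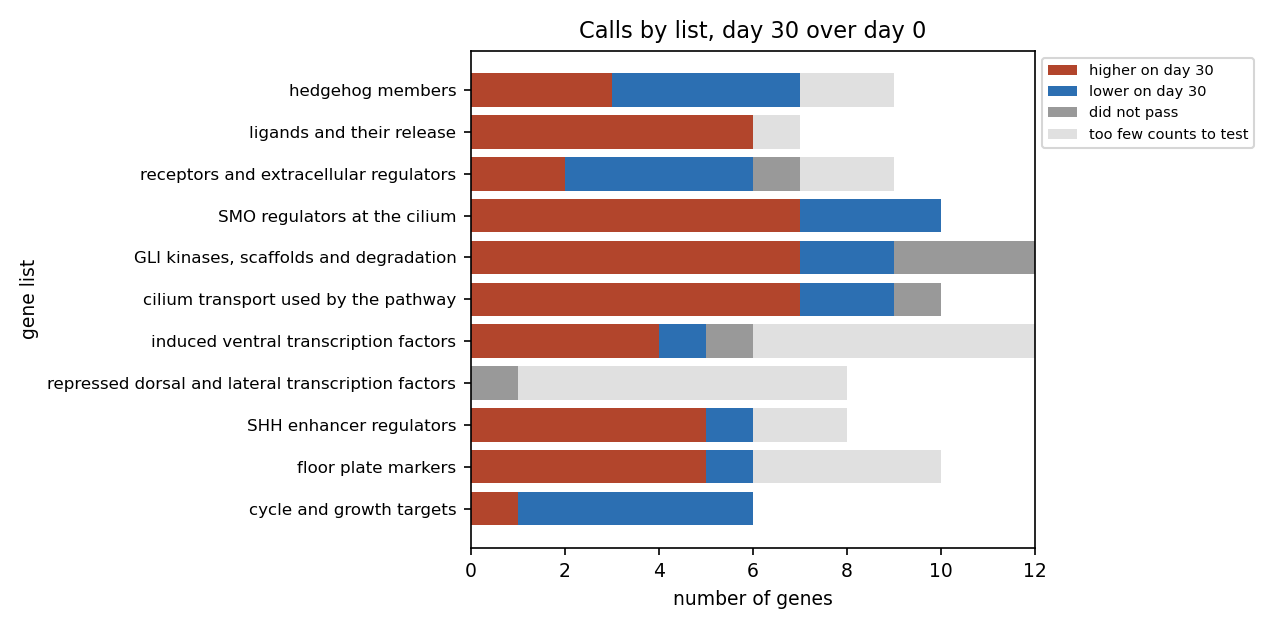
Number of genes (horizontal axis) in the 9 members and the 10 other lists that were higher on day 30, lower on day 30, did not pass the test or held too few counts to test. Among the cycle and growth targets 5 of 6 were lower, beside 36.8% of all genes tested. Most dorsal and lateral factors held too few counts to test.

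Of 10 genes that act on SMO at the cilium, the antenna-like organelle in which the pathway runs, 7 were higher and 3 lower (median 0.78). The shares of all genes tested were 39.8% higher and 36.8% lower. GPR161, a ciliary receptor that holds the pathway down through cAMP, was at 118 ± 1.25 CPM on day 30, against 23.9 ± 3.23 CPM on day 0, so that its log2 change was 2.21 ± 0.11 (edgeR adjusted p = 2.84e-08). The partners of the EVC complex, which relays the signal from SMO at the base of the cilium, differed in direction. IQCE rose by 3.21 ± 0.15 and EFCAB7 by 2.19 ± 0.21 on the log2 scale, whereas EVC2 had a log2 change of -2.35 ± 0.28 (edgeR adjusted p of at most 2.12e-05 for the 3 genes). EVC2 was at 2.06, 2.71 and 4.19 CPM on day 30, against 11.5, 12.5 and 16.5 CPM on day 0. EVC was called lower (log2 change -1.05 ± 0.37, edgeR adjusted p = 0.0239), although its ranges overlapped. It was at 3.92, 8.9 and 17.8 CPM on day 30, against 19.8, 18.6 and 17.3 CPM on day 0.

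Of 12 genes for kinases, scaffolds and degradation of GLI proteins, 7 rose, 2 fell and 3 did not pass (median 0.62). The shares of all genes tested were 39.8% higher and 36.8% lower. PRKACB, a catalytic subunit of protein kinase A, which phosphorylates GLI proteins and thereby favours the repressor form, was at 921, 830 and 786 CPM on day 30, against 36.2, 35.8 and 44.1 CPM on day 0. Its log2 change was 4.35 ± 0.16 (edgeR adjusted p = 2.71e-09). PRKACA, another catalytic subunit, rose by 1.93 on the log2 scale, and so did PRKAR1A, a regulatory subunit of the same kinase, by 1.64. The forms of the GLI proteins were not measured. Of other kinases that act in that step, GSK3B rose by 1.09, and CSNK1A1 fell to 166 ± 5.07 CPM on day 30, against 228 ± 11.2 CPM on day 0 (SD, n = 3; log2 change -0.55 ± 0.11, edgeR adjusted p = 0.000732). KIF7, the ciliary scaffold of the GLI proteins, was at a log2 value of -0.32 ± 0.2 and did not pass (edgeR adjusted p = 0.166). Of 10 genes for transport in the cilium, 7 rose and 2 fell (median 0.77), beside the same shares of all genes tested. The motor subunit KIF3A, which also serves axonal transport, was at 237 ± 18.4 CPM on day 30, against 26.6 ± 1.97 CPM on day 0 (log2 change 3.06 ± 0.13). IFT80 had the largest fall of that list, a log2 change of -1.05 ± 0.15.

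Among transcription factors that SHH signalling induces in ventral neural tissue, 6 of 12 were tested, of which 4 rose and 1 fell (median 4.76, and the same with NKX2-1 and NKX2-2, which had no day 0 counts, at their lower bounds). The shares of all genes tested were 39.8% higher and 36.8% lower. NKX2-1, which specifies ventral hypothalamus, held 529, 755.17 and 230.33 counts on day 30 and none on day 0, and was at least 433-fold higher on day 30 against a floor of 3 counts over the day 0 libraries. NKX2-2 held 101.5, 138 and 24 counts on day 30 and none on day 0, at least 75.6-fold higher. FOXA1, a relative of FOXA2, had no count on day 30 and 6 on day 0, and was not tested. FOXD1 was called lower with a log2 change of -1.77 ± 0.71 (edgeR adjusted p = 0.0402) on 24 counts in all on day 30 and 71 on day 0, and without day 0 replicate 3 it was at -0.89 (edgeR adjusted p = 0.273). Leaving out day 0 replicate 2 gave an edgeR adjusted p of 0.0652, leaving out day 30 replicate 1 gave 0.0955 and leaving out day 30 replicate 2 gave 0.145. Scaling by total counts alone gave 0.0551, and limma-voom gave 0.118. Of 8 dorsal and lateral factors that SHH signalling holds down, only IRX3 had enough counts to test, and it did not pass (edgeR adjusted p = 0.423). Of the 7 not tested, PAX6 held 3 counts in all on day 30 and 26 on day 0, MSX1 held 21 on day 30 and 4 on day 0, and the ranges of the other 5 overlapped between the days.

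Genes of families known from chick and mouse to act on SHH expression in the forebrain and hypothalamus were read next. Of 6 tested, 5 rose and 1 fell (median log2 change 7.31), beside 39.8% higher and 36.8% lower of all genes tested. SIX3 and SIX6, homeodomain factors of the anterior forebrain and eye field, were at 49.9 ± 6.85 and 27.4 ± 7.85 CPM on day 30 (SD, n = 3). On day 0 SIX3 held 4 counts and SIX6 held 1 count over the 3 libraries, which gave SIX6 a ratio of 679 (95% counting interval 122 to 26900). TBX3, which represses Shh in the ventral hypothalamus of these animals, held 178, 196 and 79 counts on day 30 and 0, 3 and 2 counts on day 0. Its relative TBX2 held 112, 101 and 40 counts on day 30 and 0, 1 and 0 counts on day 0. SOX1 was at 16.9 ± 2.51 CPM on day 30 and held 2 counts on day 0, and SOX3 fell to 4.1 ± 1.96 CPM on day 30, against 13.6 ± 3.08 CPM on day 0 (log2 change -1.74 ± 0.32, edgeR adjusted p = 0.000472). Folds against so few day 0 counts moved by over 1.5 times with 1 library. The log2 change of SIX3 was 8.01, and 9.21 without day 0 replicate 1, and that of TBX3 was 6.1, but 5.49 without day 0 replicate 1 and 6.82 without day 0 replicate 2. The day 0 counts of SIX6 lay in replicate 1 alone and those of SOX1 in replicate 3 alone.

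Markers of the floor plate, the SHH-secreting ventral midline, gave 5 higher and 1 lower of 6 tested of 10 (median log2 change 3.78), beside the near absence of FOXA2. The shares of all genes tested were 39.8% higher and 36.8% lower. SLIT1, a secreted axon guidance protein that neurons also express, was at 38.1, 33.2 and 47.2 CPM on day 30, against 1.1, 0.348 and 0.569 CPM on day 0 (log2 change 5.83 ± 0.29, edgeR adjusted p = 1.85e-08), and NTN4 at 10.3, 40.3 and 36.9 CPM on day 30, against 2.71, 2.65 and 4.09 CPM on day 0 (log2 change 3.08 ± 0.48). SPON1 had a log2 change of -0.75 ± 0.24 (edgeR adjusted p = 0.0165), which missed the threshold without day 0 replicate 3 (0.071) or day 30 replicate 2 (0.0736). LMX1A and FERD3L held at most 3 counts in any library.

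Of 6 cycle and growth genes that respond to SHH in proliferating progenitors, 5 fell and 1 rose (median -2.22), beside 36.8% lower and 39.8% higher of all genes tested. FOXM1, a regulator of mitotic genes, was at 1.31 ± 0.485 CPM on day 30, against 111 ± 9.43 CPM on day 0, MYCN at 7.24 ± 0.931 CPM on day 30, against 58.9 ± 8.76 CPM on day 0, and CCNE1, a cyclin of the start of DNA replication, at 2.74 ± 0.758 CPM on day 30, against 20.9 ± 1.62 CPM on day 0 (SD, n = 3). Their log2 changes were -6.56 ± 0.2, -3.08 ± 0.16 and -2.98 ± 0.22. BCL2, which blocks apoptosis, was at 58.4 ± 5.01 CPM on day 30, against 6.87 ± 0.646 CPM on day 0, so that its log2 change was 2.98 ± 0.14 (edgeR adjusted p = 1.46e-08).

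Genes whose pattern over the 6 libraries was most like that of a member were named by the root mean square distance between log2 CPM profiles, each centred on its mean. This measure mainly reads the size of the change between days, and 769 of 11593 eligible genes lay within 0.3 of PTCH1 and 1496 within 0.3 of SUFU. FCHSD2 and RALGPS1 were nearest to PTCH1, at distances of 0.0216 and 0.0579, PSPH and SORL1 nearest to SMO, and LINGO1 and BCLAF3 nearest to SUFU. For GLI2 the nearest were PLAG1 and TRIP6, and for GLI3 NPM3 and TRIM14. Eligible genes had a mean log2 CPM of at least 3. GLI1 and HHIP lay below that level themselves, at 2.32 and 0.89, and had 3 and 2 eligible genes within 0.3. WDR62 and NOTCH1 were nearest to GLI1, at 0.269 and 0.278, and NOTCH1, the receptor of the pathway that DAPT blocks, was at 5.04 ± 4.54 CPM on day 30, against 57.9 ± 20.6 CPM on day 0 (SD, n = 3). Its log2 change was -3.82, and -4.53 without day 30 replicate 3. LOXL1, an enzyme that crosslinks elastin and collagen, and LINC02035 were nearest to HHIP, at 0.259 and 0.298. Their log2 changes were 2.15 and 2.16, against 2.77 for HHIP.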

How the data were processed

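RNA of 6 libraries was isolated with TRIzol and sequenced after ribosomal depletion from stranded libraries, as the labels' protocols state. Quality control with FastQC 0.11.9 and the build hg38 appear in the submitters' processing notes. The aligner, counter, annotation and strand setting remain items not given in the sources used here. Values deposited by the authors are expected counts, read counts per gene, of which 83.7% of those above 0 are exactly whole (92.6% with zeros). The plan assumed raw counts, and fractions were rounded for the tests. All 54 values of the 9 members were whole. Columns of values not used numbered 0.

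Genes were tested in R 4.3.3 with edgeR 4.0.16 (quasi-likelihood, TMM, filterByExpr with a minimum of about 10 counts in 3 libraries, 18040 genes, biological coefficient of variation 0.153), 2-sided, with Benjamini-Hochberg adjustment over all genes tested. The standard error is approximate, the absolute log2 fold change over the square root of F. CPM are scaled by total counts. Positions and exon lengths come from GENCODE release 29 of the same build, which held 94.2% of entries. DESeq2 1.42.0 and limma 3.58.1 served as alternatives, and the edgeR fit was tested on simulated data.

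Named genes were all members, the largest called rise and fall of each list, called genes with a mean log2 CPM of at least 3 and an absolute log2 change of at least 2, and 2 genes nearest to each member in pattern. A gene that this rule names is not reported here. Genes named outside this rule are listed as such or are markers. Members and lists were chosen with earlier results of these data known. Ratios with few counts have a 95% exact interval, and floors are 3 counts.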

Additional observations from a re-analysis of the deposited data

How the results depend on the processing

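All 7 tested members kept their direction and passed under each of 14 refits (other scalings, DESeq2, limma-voom, 2 other filters, rounding down, a replicate block and each library left out), and no named gene reversed. Counts of members were 4 lower throughout and 3 to 4 higher, the fourth being SHH where the filter let it in: with no filter, without day 30 replicate 3 (log2 change 3.01) and without each day 0 library (2.37 to 3.16; edgeR adjusted p of at most 0.0116). Where a filter was kept, SHH passed it through its day 30 reads and had to differ to be tested, so this call adds little. Leaving out day 30 replicate 3 also removed the day 30 library with the least SHH. Other pathway genes gave 42 to 45 higher and 16 to 22 lower, and all genes 6783 to 9147 higher and 6228 to 7692 lower. Of 683 recomputed values of named genes and shares 8 lost their call, for FOXD1 and SPON1, and 3 GLI shares moved with the length used. No pairing by replicate number was seen, although 3 libraries per day cannot exclude one. Deviations of same-numbered libraries correlated at 0.075, -0.004 and -0.052, and those of differently numbered libraries at -0.134 to 0.137. With the replicate block 6921 genes were higher and 6415 lower, with GLI1 at -3.89. GLI1, with 16 counts on day 30, and SHH, HHIP and FOXA2 are limited by depth.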
